A study of Homo sapiens with 96 samples.

Results

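The proteasome subunits were taken as every gene whose whole symbol is PSMA, PSMB, PSMC, PSMD or PSME followed by a number. The rule found 43 of the 19438 genes in the deposited tables. It leaves out 1 symbol that goes on after its number (PSMC3IP) and the 4 PSMG chaperones, which are described below as neighbours of the pathway. By known role the 43 genes fall into 8 alpha and 7 constitutive beta subunits of the 20S core, 4 inducible beta subunits, 9 base and 8 lid subunits of the 19S cap, 3 chaperones of base assembly and 4 activators. The rule itself reads only names and no measured value.

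The proteasome is the cell's main machine for degrading proteins tagged with ubiquitin. Its barrel, the 20S core, is built of stacked alpha and beta rings, with the proteolytic sites on 3 beta subunits inside the chamber and the alpha rings gating the entrance. The 19S cap recognises ubiquitin through its base and lid, removes it, and unfolds the substrate with a ring of ATPases. Under interferon, inducible beta subunits replace the catalytic ones, giving the immunoproteasome, which cuts peptides for presentation on MHC class I molecules. Subunit genes are known to be driven together, through antioxidant response elements bound by NFE2L1, and proteasomes degrade clock proteins such as PER and CRY once these are ubiquitinated.

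The study used U2-OS, an established line from a human bone tumour (osteosarcoma), with luciferase driven by the Per2 promoter, and followed it through 1 day of a synchronised circadian clock. In every group the clock was set with 0.1 µM dexamethasone, a glucocorticoid, and collection began 24.5 h later and went on every 2 h for 12 times, labelled CT00 to CT22 (circadian time in hours). Cells with no siRNA, called wild-type here, were compared with cells given siRNA against Bmal1, the clock activator encoded by ARNTL. At each time 2 replicates were measured as total RNA and as ribosome footprints, the RNA fragments protected by translating ribosomes after 100 µg/mL cycloheximide, which gave 96 libraries, 24 for each treatment and assay. No library from cells given a control siRNA was analysed here, so transfection and loss of BMAL1 cannot be told apart, and the labels do not say whether replicates were separate cultures.

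ARNTL total RNA fell from a range of 14.3 to 47.9 (median 32.7) CPM (a gene's reads scaled to the depth of its library) in wild-type libraries to 3.36 to 6.49 (median 4.75) CPM after knockdown, and it was lower in every knockdown library in both assays. In total RNA 46 libraries held 13.6 to 20.1 M reads and the 48 footprint libraries 2.50 to 5.82 M. The other 2 total RNA libraries, knockdown replicate 2 at CT14 and CT18, were shallow, with 2.66 and 2.56 M reads, and scattered more widely. At CT18 replicate 2 lay below replicate 1 in 30 of 41 subunits (median log2 difference -0.13, lowest -0.67 for PSMD9), and at CT14 in 26 of 41 (median -0.05), while the median difference over all genes was -0.03 and -0.04. At CT08, where both libraries had full depth, 33 of 41 subunits were lower in replicate 2 (median -0.05), so direction alone did not mark the shallow libraries. The spread over all genes did. Its 10th and 90th percentiles were -0.44 and 0.44 at CT14 and -0.45 and 0.51 at CT18, against -0.28 and 0.33 at CT08. For 22 of the 41 subunits the lowest knockdown value was in 1 of the 2 shallow libraries, so knockdown counts are also given without them. Of 8 osteoblast lineage genes 5 averaged at least 1 CPM in both treatments, with SPARC and COL1A1 high and SP7, COL1A2 and BGLAP near 0. Of 4 blood genes only CD68 reached 1 CPM on average, their sum was 1.57 to 3.38 CPM in wild-type and 9.84 to 17.6 CPM in knockdown libraries, and CD3E was at 0 in every library. Epithelial and neuronal genes summed to at most 23.7 and 21.0 CPM. The part of other cells in the immune-related subunits below was not tested.

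Enough reads for a test were found for 41 subunits in total RNA and 40 in footprints. PSMA8, a testis form of an alpha subunit, had no read in any total RNA library. PSMB11, the thymus form of the inducible subunit, had at most 2 reads in a library. PSMC1, an ATPase of the base, ranged only from 1.64 to 3.99 (median 2.46) CPM in wild-type total RNA and had at most 3 footprint reads in a library. PSMC1 overlaps NRDE2 and has 13 named pseudogenes, and 20 subunits have named pseudogenes (51 in all), with which reads could be shared. PSMC2, PSMC5, PSMD1 and PSMD10 also overlap another gene of the tables, and PSMA3, PSMB8 and PSMD6 have antisense neighbours, whose reads cannot be told apart where counting ignored strand. Levels are shares of a library, in which fewer cells of a kind and less RNA per cell cannot be told apart, and are not corrected for gene length, so they are compared between samples and not between genes.

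Knockdown moved proteasome genes in both directions in total RNA. Averaged over the 12 times, 20 of 41 subunits were higher and 12 lower at an adjusted p of 0.05 (limma with Benjamini-Hochberg adjustment over all genes). Of all 13188 genes tested, 81.7% passed, 41.8% higher and 39.9% lower, so the share of subunits called was close to the background and the set as a whole had a median log2 difference of 0.07 against 0.01 for all genes. What differed was the size by subunit: PSMD2, PSMB8 and PSME4 rose most, and PSMA1, PSMA6 and PSMC3 fell most. Without the 2 shallow libraries 22 were higher and 13 lower, and with each replicate series reduced to its mean 14 were higher and 8 lower. In the latter fit 2 of 3 inducible and 3 of 7 constitutive beta subunits were higher. P-values below treat libraries as separate, although same-numbered wild-type total RNA libraries deviated together. Log2 differences are knockdown minus wild-type on log2(CPM + 0.25), with 24 libraries a group.

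**Figure D1:**
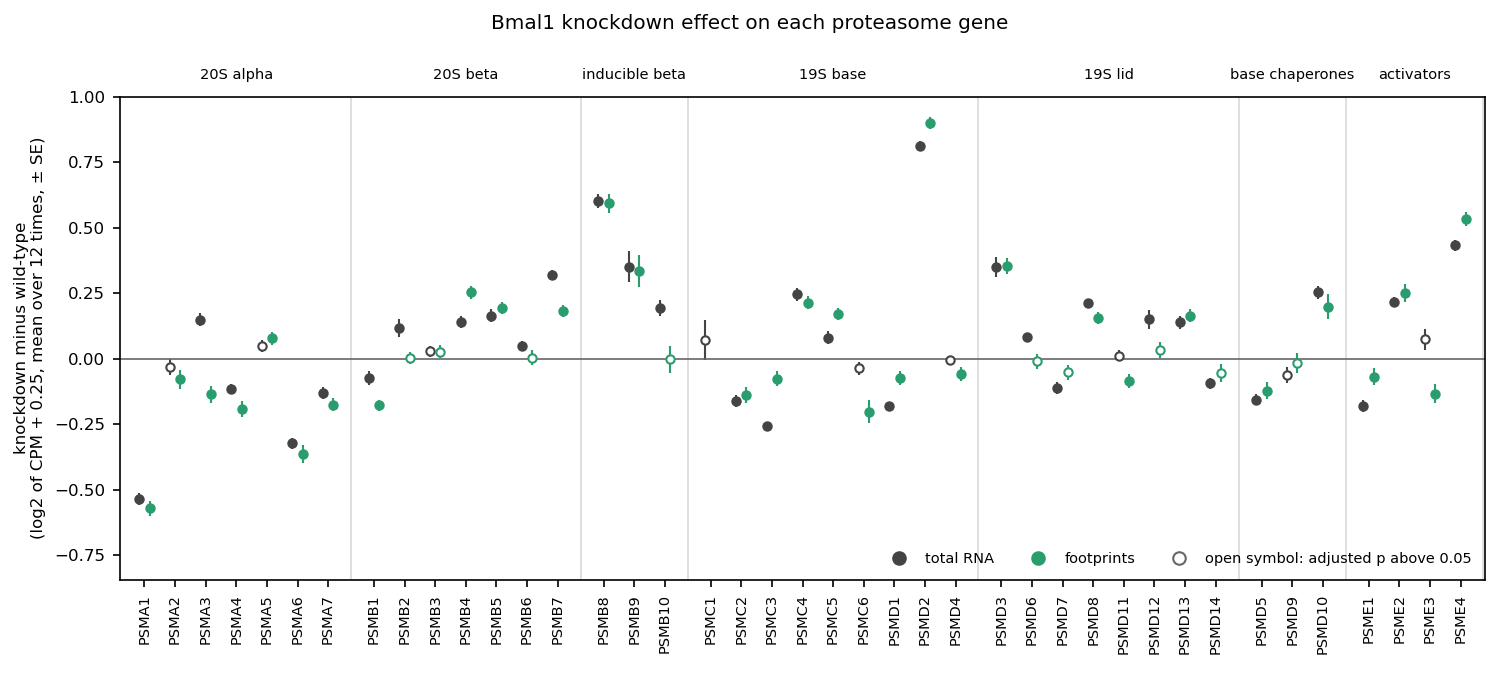
Each proteasome gene (x axis, by role group) with its log2 difference between Bmal1 knockdown and wild-type libraries, averaged over 12 times (y axis), in total RNA (grey) and footprints (green), bars giving the standard error; open symbols did not pass an adjusted p of 0.05. PSMD2 stands highest and PSMA1 lowest in both assays, and the alpha subunits lie mostly below 0 in footprints.

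The alpha subunits form the outer rings of the core and its gate. In total RNA 1 of 7 tested rose and 4 fell, with a median of -0.12. PSMA1 ranged from 222 to 311 (median 262) CPM in wild-type and from 169 to 195 (median 179.8) CPM in knockdown total RNA. It fell by 0.54 (SE 0.02, limma adjusted p = 4.1e-21), and every knockdown library lay below every wild-type one. No other subunit was lower without overlap in total RNA, where 9.96% of all genes were. Its footprints, 314 to 453 (median 384) CPM in wild-type, were 230.1 to 293 (median 259.7) CPM after knockdown, again with no overlap (5.66% of all genes).

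PSMA6, on the same ring, ranged from 104 to 138 (median 115) CPM in wild-type and 85.6 to 105 (median 93.6) CPM in knockdown total RNA. It fell by 0.32 (SE 0.02, limma adjusted p = 1.0e-15), with 23 of 24 knockdown libraries below all wild-type ones. PSMA4 and PSMA7 also fell, by 0.12 and 0.13. PSMA3 rose in total RNA by 0.15 (SE 0.02, limma adjusted p = 1.4e-06), while PSMA2 and PSMA5 differed by -0.03 and 0.05 and did not pass. In footprints 6 of 7 alpha subunits fell and only PSMA5 rose, against 38.1% lower among all genes. With the authors' own scaling of the footprints 4 of the 6 stayed lower, PSMA3 did not pass, and PSMA2 turned to 0.02.

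The 3 constitutive catalytic subunits did not fall. PSMB5 carries the chymotrypsin-like site. Its total RNA ranged from 189 to 269 (median 224) CPM in wild-type and 179 to 268 (median 254) CPM in knockdown libraries, overlapping widely, and rose by 0.16 (SE 0.02, limma adjusted p = 3.8e-07). PSMB7, with the trypsin-like site, ranged from 137 to 196 (median 161) CPM and 169.5 to 235 (median 205) CPM, and 19 of 24 knockdown libraries were above every wild-type one. It rose by 0.32 (SE 0.02, limma adjusted p = 1.1e-16). PSMB6, with the caspase-like site, ranged from 132 to 183 (median 155) CPM and 146 to 170.3 (median 159.8) CPM. The groups overlapped almost fully, and the rise was 0.05 (SE 0.02, limma adjusted p = 0.015). Among the non-catalytic beta subunits PSMB2 and PSMB4 rose by 0.12 and 0.14, PSMB1 fell by 0.07, and PSMB3 (0.03) did not pass. Only the 2 shallow knockdown libraries put PSMB2 above every wild-type one (87.5 and 81.3 CPM). Without them its highest knockdown value was 65.6 CPM. Footprints rose for PSMB4, PSMB5 and PSMB7 (0.25, 0.19 and 0.18) and fell for PSMB1 by 0.18.

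All 3 inducible beta subunits tested rose in total RNA. PSMB8, which replaces PSMB5 in the immunoproteasome, ranged from 44.8 to 55.4 (median 49.3) CPM in wild-type and from 63.5 to 88.2 (median 74.5) CPM in knockdown libraries. Every knockdown library was above every wild-type one, which held for no other subunit in total RNA and for 9.98% of all genes. The rise was 0.60 (SE 0.03, limma adjusted p = 2.7e-20). In footprints PSMB8 went from 54.9 to 78.8 (median 68.0) CPM to 81.0 to 121 (median 102) CPM, again with no overlap, a rise of 0.59 (SE 0.04, limma adjusted p = 2.1e-18).

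PSMB9, which replaces PSMB6 and lies beside PSMB8, TAP1 and TAP2 on chromosome 6, was scarce. Its total RNA ranged from 6.78 to 11.8 (median 8.91) CPM in wild-type and 7.37 to 16.2 (median 12.0) CPM in knockdown libraries. It rose by 0.35 (SE 0.06, limma adjusted p = 3.4e-06), higher at 12 of 12 times but with 13 of 24 knockdown libraries above all wild-type ones. PSMB10, which replaces PSMB7, ranged from 29.0 to 39.4 (median 35.7) CPM and 34.4 to 44.2 (median 40.9) CPM and rose by 0.19 (SE 0.03, limma adjusted p = 8.6e-07). In 17 of 24 knockdown libraries it was above all wild-type ones. The rise of PSMB10 was not seen in footprints, 32.7 to 53.6 (median 43.3) CPM in wild-type and 31.1 to 60.1 (median 43.7) CPM after knockdown (limma adjusted p = 0.98).

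Ratios within each catalytic pair put these changes on 1 scale. The log2 ratio of PSMB8 to PSMB5 total RNA was -2.17 ± 0.16 in wild-type and -1.73 ± 0.17 in knockdown libraries (SD, n = 24). That of PSMB9 to PSMB6 was -4.06 ± 0.30 and -3.76 ± 0.29. The ratio of PSMB10 to PSMB7 moved the other way, from -2.22 ± 0.12 to -2.35 ± 0.14, PSMB7 having the larger rise of the pair. Ratios are not corrected for gene length, so only their shifts between groups can be read.

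The base of the cap holds 6 ATPases, the scaffold subunits PSMD1 and PSMD2, and the ubiquitin receptor PSMD4. In total RNA 3 of 9 rose and 3 fell. PSMD2, on which ubiquitin-like domains of shuttle proteins dock, ranged from 591 to 1073 (median 756) CPM in wild-type and 1047 to 1654 (median 1352) CPM in knockdown libraries. In 23 of 24 knockdown libraries it was above all wild-type ones, and the exception was the shallow library at CT18. Without the shallow libraries the lowest was 1179 CPM and the groups did not overlap. PSMD2 rose by 0.81 (SE 0.02, limma adjusted p = 6.3e-27). Footprints rose by 0.90 (SE 0.02, limma adjusted p = 1.4e-30), from 573 to 928 (median 729.5) CPM to 1122 to 1659.8 (median 1301) CPM, with no overlap, as for 6.28% of all genes.

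The ATPases split. PSMC4 rose by 0.25 (SE 0.02, limma adjusted p = 4.2e-11) and PSMC5 by 0.08 (SE 0.02, limma adjusted p = 4.7e-03), although the PSMC5 difference was -0.02 when replicate 2 was left out. PSMC3 ranged from 384 to 502 (median 429) CPM in wild-type and 326 to 400.1 (median 367) CPM in knockdown total RNA and fell by 0.26 (SE 0.01, limma adjusted p = 1.0e-16). In 21 of 24 knockdown libraries it was below all wild-type ones. PSMC2 fell by 0.16, and PSMC6 (-0.04) and PSMC1 (0.07) did not pass. PSMD1, the second scaffold, fell by 0.18 while PSMD2 rose. In footprints 3 of 8 rose and 5 fell, but with the authors' scaling only PSMC6 stayed lower, and PSMC3, PSMD1 and PSMD4 turned to 0.02, 0.02 and 0.04.

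The lid holds the deubiquitinase PSMD14, its partner PSMD7 and structural subunits. In total RNA 5 of 8 rose and 2 fell. PSMD3 ranged from 173 to 287 (median 234) CPM in wild-type and 269 to 329 (median 292) CPM in knockdown libraries and rose by 0.35 (SE 0.04, limma adjusted p = 2.0e-09). In 16 of 24 knockdown libraries it was above all wild-type ones. PSMD8, PSMD12, PSMD13 and PSMD6 rose by 0.21, 0.15, 0.14 and 0.08. The catalytic pair fell, PSMD14 by 0.09 and PSMD7 by 0.11, and neither passed in footprints. Without replicate 1 only 1 lid subunit was lower in total RNA, and 0 were with each replicate series reduced to its mean. PSMD11, which clamps the lid to the core, differed by 0.01 and did not pass. Of the chaperones that build the base, PSMD10 rose by 0.25 and PSMD5 fell by 0.16, and PSMD9 (-0.06) did not pass. In footprints 3 of 8 lid subunits rose (PSMD3, PSMD8 and PSMD13, by 0.35, 0.16 and 0.16) and PSMD11 fell by 0.08, but with the authors' scaling 5 were higher and PSMD11 turned to 0.01.

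The activators bind the ends of the core in place of the 19S cap. PSME4, a nuclear activator, ranged from 137 to 186 (median 157) CPM in wild-type and 184 to 269.5 (median 215) CPM in knockdown total RNA. It rose by 0.43 (SE 0.02, limma adjusted p = 8.8e-19), with 22 of 24 knockdown libraries above all wild-type ones. Its footprints rose by 0.53 (SE 0.03, limma adjusted p = 1.4e-20), from 263 to 352 (median 300.4) CPM to 387 to 526 (median 431) CPM, and did not overlap.

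PSME1 and PSME2 are the partners of the interferon-inducible activator, neighbours on chromosome 14, and they moved in opposite directions. PSME2 ranged from 102 to 119 (median 111) CPM in wild-type and 110.0 to 151 (median 129.6) CPM in knockdown total RNA and rose by 0.22 (SE 0.02, limma adjusted p = 5.8e-12). PSME1 ranged from 89.8 to 130.3 (median 112) CPM and 80.2 to 118 (median 99.2) CPM and fell by 0.18 (SE 0.02, limma adjusted p = 9.2e-09). PSME2 was higher, and PSME1 lower, at 12 of 12 times. In footprints PSME2 also rose by 0.25, while the fall of PSME1 by 0.07 turned to 0.03 with the authors' scaling. PSME3, the nuclear activator, ranged from 56.9 to 91.1 (median 75.8) CPM and 69.1 to 97.2 (median 77.7) CPM and differed by 0.07, which did not pass (limma adjusted p = 0.090) but did with the replicate number as a block (limma adjusted p = 0.022).

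In footprints as a whole 15 of 40 subunits were higher and 16 lower (limma; 75.5% of all genes passed, 37.4% higher and 38.1% lower). With the authors' own scaling, under which the median of all genes moved from -0.01 to 0.09, the split was 21 higher and 6 lower. PSMD2, PSMB8, PSME4, PSMB9 and PSMD3 rose, and PSMA1 and PSMA6 fell, under both scalings.

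Whether the knockdown acted differently on footprints than on total RNA was tested as the difference of the log2 effects, a change in translational efficiency. It passed for 16 of 40 subunits, 7 up and 9 down, where 31.1% of all genes passed (13.1% up, 18% down). PSMA3 moved most: total RNA rose by 0.15, footprints fell by 0.14, and the difference was -0.29 (SE 0.04, limma adjusted p = 1.2e-07). Its log2 ratio of footprint to total RNA CPM was 1.77 ± 0.14 in wild-type and 1.48 ± 0.11 in knockdown libraries (SD, n = 24). PSMC3 went the other way, with a smaller fall in footprints and a difference of 0.18 (SE 0.03, limma adjusted p = 1.0e-05), its ratio going from 0.25 ± 0.11 to 0.43 ± 0.06. PSME3 (-0.21), PSMB10 (-0.20), PSMC6 (-0.16) and PSMB7 (-0.14) followed PSMA3, and PSMB4 and PSME1 (0.11 each) followed PSMC3. PSMB8, PSMB9 and PSMD3 differed by 0.02 or less between assays and did not pass. The count depended on the replicates and was 4 without replicate 1, 9 without replicate 2 and 0 with each replicate series reduced to its mean. With the authors' scaling it was 18, of which 17 were up and only PSMA3 down. That scaling moved the median difference of the 40 subunits from -0.02 to 0.08, and the share of all genes under it is not given here.

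**Figure D2:**
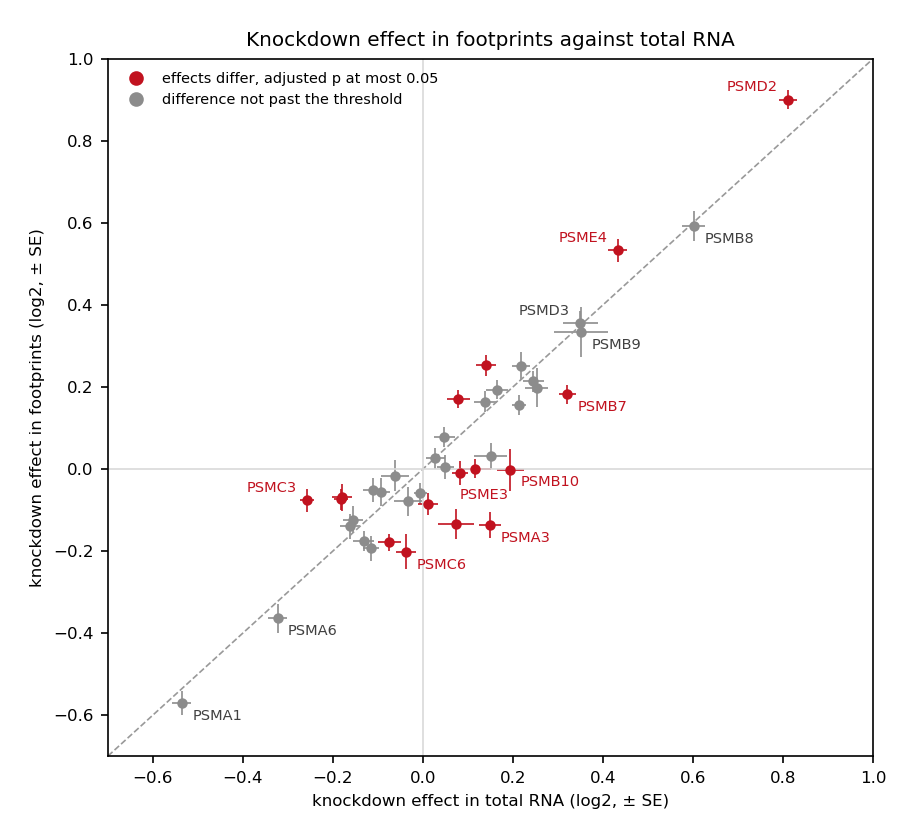
Knockdown effect in footprints (y axis) against total RNA (x axis) for the 40 subunits tested in both, log2 with bars giving the standard error, and a dashed line of equal effects. Subunits in red differ between assays at an adjusted p of 0.05; PSMB8, PSMA1 and PSMA6 lie near the line, PSMD2 and PSME4 above it, and PSMA3 and PSME3 lie below it.

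Over the sampled day the constitutive proteasome declined together in wild-type cells. The fitted change in total RNA from CT00 to CT22 was lower for 36 of 41 subunits and higher for 2 (limma adjusted p of 0.05), where 26.1% of all genes fell and 20.2% rose. The median change was -0.30, against -0.02 over all genes. All 7 alpha and all 7 constitutive beta subunits fell, as did 8 of 9 base subunits (all but PSMC1), 8 of 8 lid subunits and 3 of 3 base chaperones. In 30 of the 43 genes every library of CT18 to CT22 was below every library of CT00 to CT04, against 10.0% of all genes. Footprints followed, with 32 of 40 down and 2 up (all genes 12.8% and 13.3%) and 23 genes below without overlap (3.72% of all genes), while only PSME1 was above (4.96%).

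**Figure D3:**
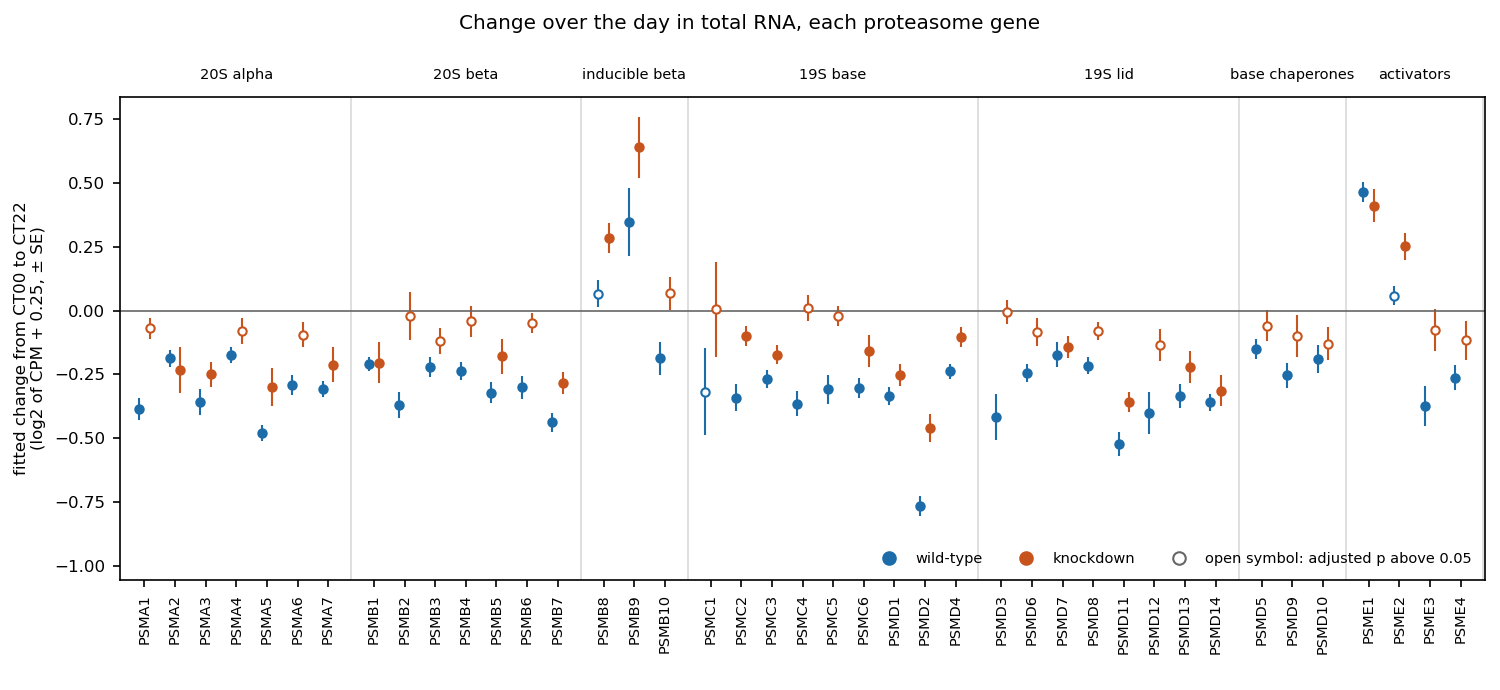
Fitted log2 change in total RNA from CT00 to CT22 (y axis, bars give the standard error) of each proteasome gene (x axis, by role group) in wild-type (blue) and knockdown cells (orange); open symbols did not pass an adjusted p of 0.05. Constitutive subunits lie below 0 in wild-type cells, with PSMD2 lowest, while PSMB9 and PSME1 lie above 0 in both treatments.

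The steepest decline was again in PSMD2. Its wild-type total RNA ranged from 947 to 1073 (median 997) CPM at CT00 to CT04 and from 591 to 669 (median 639.7) CPM at CT18 to CT22 (6 libraries each), with no overlap. The fitted change was -0.77 (SE 0.04, limma adjusted p = 8.2e-15). PSMD11 went from 191 to 232 (median 214) CPM to 149 to 168 (median 159) CPM, a change of -0.52 (SE 0.05, limma adjusted p = 9.6e-10). PSMA5 went from 314 to 344 (median 323) CPM to 236 to 254 (median 246) CPM, a change of -0.48 (SE 0.03, limma adjusted p = 2.6e-12). Footprints of the same genes changed by -0.62, -0.57 and -0.59. The catalytic PSMB5, PSMB6 and PSMB7 changed by -0.32, -0.30 and -0.44 in total RNA, each past the threshold. The nuclear activators PSME3 and PSME4 fell with the core, by 0.37 and 0.26.

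The interferon-inducible members differed among themselves. PSME1 ranged from 89.8 to 101 (median 97.6) CPM early and 125 to 130.3 (median 127) CPM late in wild-type total RNA, with no overlap, and rose by 0.47 (SE 0.04, limma adjusted p = 1.5e-10). PSMB9 ranged from 6.78 to 9.20 (median 8.22) CPM early and 9.21 to 11.8 (median 10.1) CPM late and rose by 0.35 (SE 0.13, limma adjusted p = 0.034). The highest early and lowest late PSMB9 values all but touched. These were the 2 genes above without overlap, where 8.19% of all genes were. PSMB8 (0.07) and PSME2 (0.06) did not pass. PSMB10 fell by 0.19 (limma adjusted p = 0.019), but its change was 0.05 without replicate 1.

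**Figure D4:**
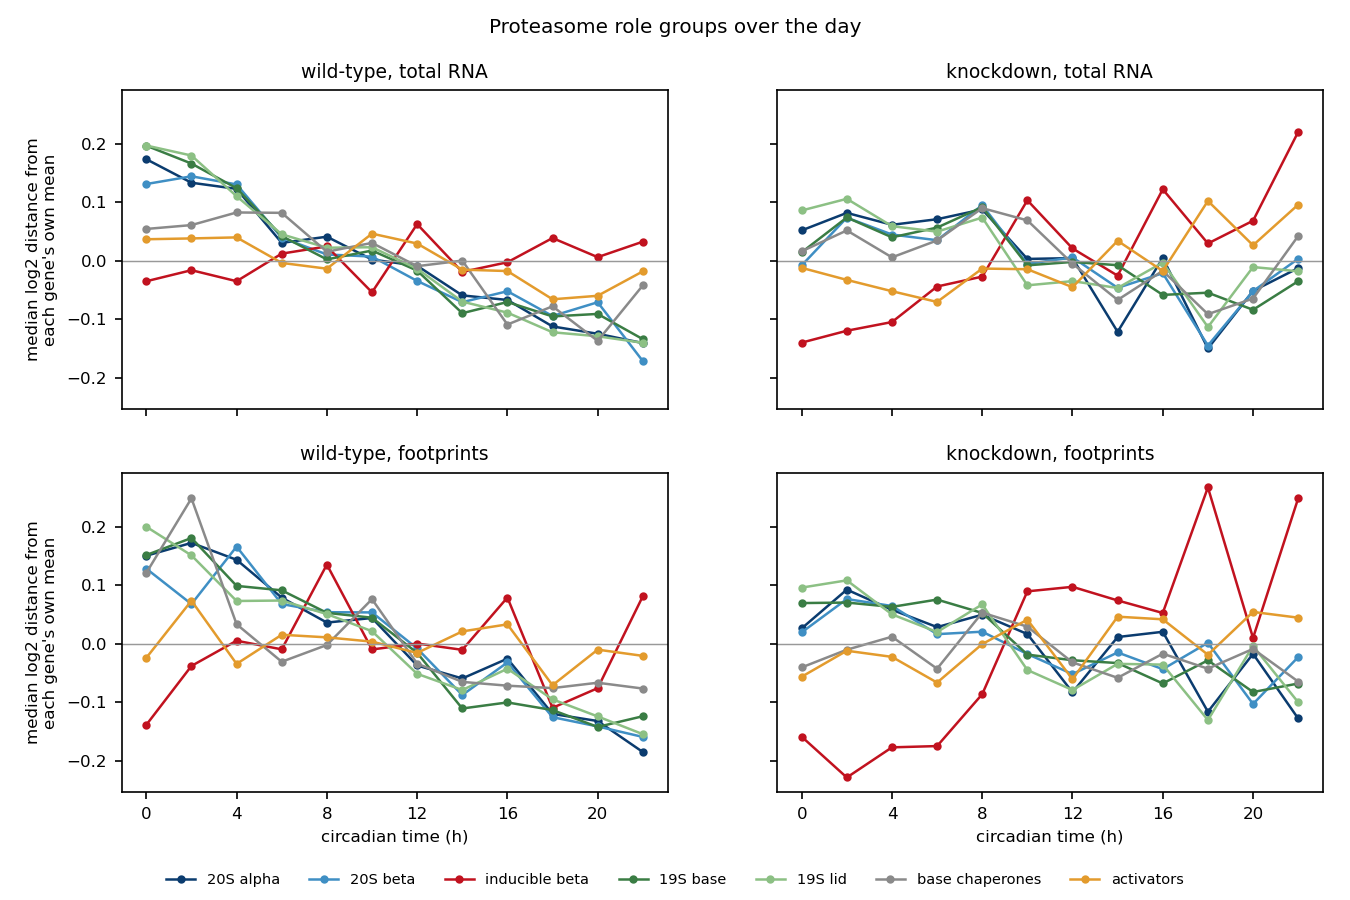
Median over the genes of each role group (coloured lines) of the log2 distance from each gene's own mean over the day (y axis) against circadian time in hours (x axis), by treatment and assay. In wild-type cells the 20S and 19S groups run together from above 0 early to below 0 late, and in knockdown cells the inducible beta subunits run upward.

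In knockdown cells the decline was smaller, and more of the interferon-inducible members passed as rising, each treatment being tested by itself. In total RNA 17 of 41 subunits fell and 4 rose (35.1% of all genes passed, 18.1% down and 17.0% up), with a median of -0.10. PSMD2 still fell by 0.46 (SE 0.05, limma adjusted p = 7.6e-08), with early values of 1529 to 1654 (median 1558) CPM and late values of 1047 to 1289.6 (median 1234) CPM. PSMB9 rose by 0.64 (SE 0.12, limma adjusted p = 1.1e-04), from 7.37 to 10.7 (median 8.89) CPM early to 10.4 to 16.2 (median 12.6) CPM late, overlapping in part. PSMB8 rose by 0.28 (SE 0.06, limma adjusted p = 3.4e-04), from 64.8 to 73.3 (median 69.0) CPM to 74.8 to 88.2 (median 81.2) CPM, and did not overlap. PSME1 and PSME2 rose by 0.41 and 0.25. Late libraries were below early ones without overlap in 10 genes and above in 2 (9.62% and 6.7% of all genes).

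Knockdown footprints gave 15 of 40 down and 5 up (14.2% and 11.6% of all genes). The 5 that rose were PSMB8, PSMB9, PSMB10, PSME1 and PSME2, by 0.33, 0.59, 0.48, 0.30 and 0.31. PSMB10 footprints ranged from 31.1 to 43.7 (median 38.4) CPM early and 42.4 to 60.1 (median 50.7) CPM late, overlapping in part. Late libraries were below without overlap in 9 genes and above in 2 (5.59% and 3.39%). The count past the threshold was 9 in total RNA and 6 in footprints without replicate 1, and 24 in total RNA without the 2 shallow libraries.

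The difference between treatments was tested as a change of slope, an alternative added after the data had been seen. In total RNA 16 of 41 subunits had a higher slope in knockdown cells and none a lower one (limma; none lower at an unadjusted p under 0.05 or by edgeR), where 10.6% of all genes were higher and 10.5% lower. In footprints 10 of 40 were higher and none lower, again with none lower at an unadjusted p under 0.05 (9.26% of all genes passed, 3.71% higher and 5.55% lower). PSMD3 showed the largest difference in total RNA, 0.41 (SE 0.10, limma adjusted p = 2.8e-03). Its wild-type values went from 234 to 287 (median 255) CPM early to 173 to 234 (median 207) CPM late, without overlap, and its knockdown values were 287 to 319 (median 299) CPM and 278 to 329 (median 291) CPM, which overlapped. PSMC4 (0.37) and PSMB2 (0.35) came next. PSMB2 stood at 87.5 and 81.3 CPM in the shallow knockdown libraries of CT14 and CT18, against 62.3 and 58.1 CPM in replicate 1. These 2 late values lift its knockdown slope. In footprints PSMB10 (0.66, limma adjusted p = 2.5e-03), PSMA1 (0.39) and PSMD3 (0.34) led. The counts moved with the processing. In total RNA 2 passed without replicate 1 (median difference 0.04), 19 without replicate 2, 10 with the authors' scaling and 20 without the shallow libraries. Without replicate 1 the difference was -0.02 for PSMB10 and -0.01 for PSMB4. In footprints 5 passed without replicate 1 and 4 without replicate 2. With a cosine and a sine in the model 4 passed in total RNA and 0 in footprints, so that every footprint call was lost. With 1 day sampled, that model cannot separate a slope from a 24 h wave well.

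**Figure D5:**
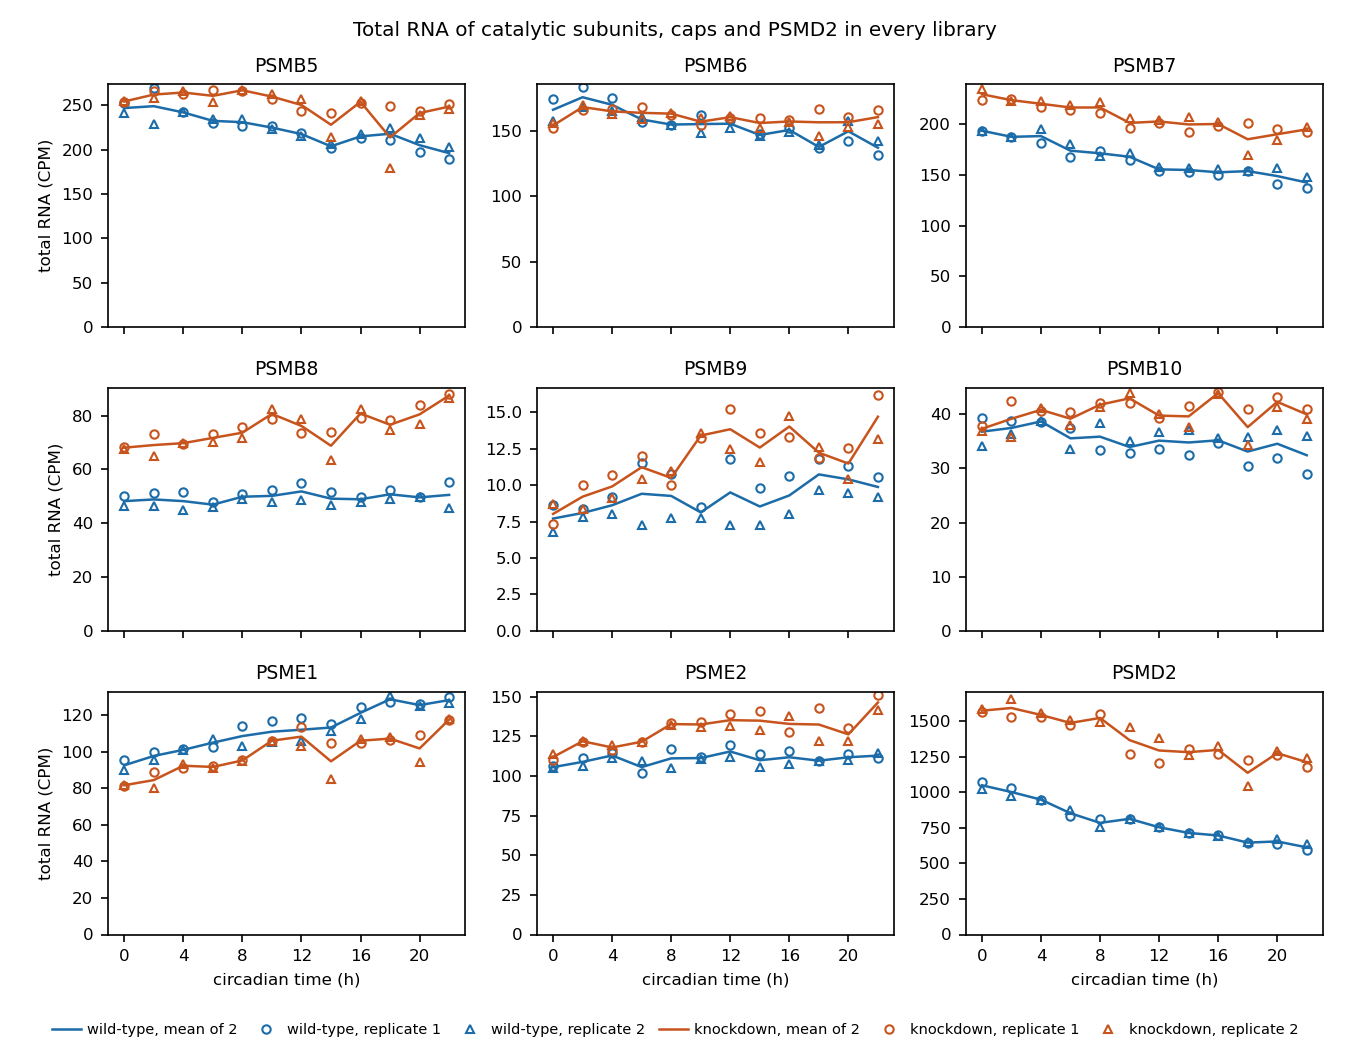
Total RNA in CPM (y axis, from 0) of 9 proteasome genes against circadian time in hours (x axis) in every library, circles for replicate 1 and triangles for replicate 2, wild-type in blue and knockdown in orange, lines joining the means. PSMD2 is lower late than early in both treatments, PSMB8 separates the treatments at every time, and the triangles at CT14 and CT18 of the knockdown are the 2 shallow libraries.

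A change of translational efficiency over the day was not detected for any subunit. The slope of footprints minus that of total RNA passed for 0 of 40 in either treatment with limma and with edgeR, with 2 wild-type and 1 knockdown subunits at an unadjusted p under 0.05 (of all genes 1.02% passed in wild-type, 0.262% higher and 0.758% lower, and 0.00942% in knockdown cells). The median difference was -0.01 in wild-type and 0.01 in knockdown cells.

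A cosine of 24 h was also fitted. In wild-type total RNA it passed for 33 of 41 subunits (23.1% of all genes), including all alpha and beta core subunits and none of the 3 inducible ones (0 at an unadjusted p under 0.05). Peaks of the called subunits had a median at CT 4.37, and PSME1, at CT 16.8, was opposite. The largest amplitudes were 0.27 for PSMD2, 0.19 for PSMD11 and 0.17 for PSMA5. Wild-type footprints gave 18 of 40 (6.97% of all genes), all of them constitutive core or cap subunits, with peaks between CT 3.84 and 6.32. In knockdown cells 24 of 41 passed in total RNA and 16 of 40 in footprints (33.7% and 18.5% of all genes), led by PSMB9 with amplitudes of 0.26 and 0.28 and peaks at CT 14.5 and 14.3.

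Few rhythm calls passed beside a drift. Over 1 sampled day a 24 h wave and a line are partly alike in shape, so fitting both at once cannot separate them well. With a linear drift in the model the counts were 0 and 0 in wild-type, and 2 and 0 in knockdown cells, for total RNA and footprints. In the opposite check, with a cosine and a sine in the model, 30 of the 38 drift calls held in wild-type total RNA and 15 of 34 in wild-type footprints, and 8 and 4 passed in knockdown cells. The rhythm differed between treatments for 2 subunits in total RNA (10.9% of all genes), PSME4 by 0.16 (limma adjusted p = 0.021) and PSMC4 by 0.14 (limma adjusted p = 0.025), and for PSMC4 by 0.16 in footprints (limma adjusted p = 0.010, 3.85% of all genes). With the replicate number as a block 5 subunits passed in each assay. None of these 3 differences passed without either replicate or with a drift added. PSMC4 in total RNA also did not pass without the shallow libraries. Leaving out a replicate also lowered the rhythm counts, to 24 and 13 in wild-type total RNA, 9 and 6 in wild-type footprints, 7 and 6 in knockdown total RNA and 1 and 5 in knockdown footprints (without replicate 1 and 2).

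How tightly the subunits moved together was described by the correlation of their 12 time means. Over the 465 pairs of 31 constitutive core and cap genes the median r was 0.93 in wild-type total RNA and 0.57 in knockdown total RNA. Over the 435 pairs of 30 genes in footprints it was 0.84 and 0.45, and the median over all gene pairs was 0.00. All points share the same libraries and, in wild-type, the same decline. Against the mean of the constitutive genes, wild-type total RNA of PSME3 (0.93), PSMD9 (0.85), PSME4 (0.84) and PSMB10 (0.84) ran with it. PSMB8 (-0.52), PSMB9 (-0.78) and PSME1 (-0.97) ran against it. In knockdown footprints PSMB8 (-0.94), PSME1 (-0.90) and PSMB10 (-0.88) did so most.

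Of the 3 catalytic pairs, 2 shifted over the day without overlap in both treatments in total RNA, but none did so in footprints. The log2 ratio of PSMB8 to PSMB5 total RNA averaged -2.34 at CT00 to CT04 and -2.03 at CT18 to CT22 in wild-type, and -1.91 and -1.51 in knockdown cells (SDs 0.07, 0.15, 0.05 and 0.14, n = 6). The ratio of PSMB9 to PSMB6 averaged -4.35 and -3.75 in wild-type and -4.14 and -3.61 in knockdown cells (SDs 0.10, 0.20, 0.16 and 0.19). For these pairs and in both treatments every late total RNA library lay above every early one. The late wild-type ratio of PSMB8 to PSMB5 overlapped the early knockdown ratio. The ratio of PSMB10 to PSMB7 averaged -2.33 early and -2.15 late in wild-type, which overlapped, and -2.52 and -2.24 in knockdown cells, which did not (SDs 0.09, 0.11, 0.12 and 0.07). In footprints the ratios of PSMB8 to PSMB5 and of PSMB10 to PSMB7 overlapped in wild-type and not in knockdown cells. That of PSMB9 to PSMB6 overlapped in knockdown cells (early highest -3.37, late lowest -3.73) and not in wild-type. The share of other gene pairs with such shifts was not computed.

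Promoter sequences show which members share known response elements. RefSeq promoters (GRCh38.p14, 250 bases before to 50 after the start) were listed for 38 of the 43 genes, and PSMA7, PSMB1, PSMB6, PSMB7 and PSMD4 had none, and 6 genes had several listed starts. The core of the interferon response element, GAAA, any 2 letters and GAAA again, on either strand, was found in 6 of 38 (15.8%), against 4.16% of 15843 promoters. It is shown because PSMB8, PSMB10, PSME1 and PSME2, all interferon-inducible and described above, carry the same 10 letters. PSMB9 and PSMB11, the other inducible beta subunits, held no match in their windows. Each sequence runs 5′ to 3′ on the strand of its gene, with the match in capitals, TTTCGCTTTC being its reverse complement.
PSMB8, chr6:32844032-32844061, minus strand: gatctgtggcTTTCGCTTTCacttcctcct
PSMB10, chr16:67936852-67936881, minus strand: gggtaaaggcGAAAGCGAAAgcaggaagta
PSME1, chr14:24136189-24136218, plus strand: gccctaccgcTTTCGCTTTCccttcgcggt
PSME2, chr14:24146619-24146648, minus strand: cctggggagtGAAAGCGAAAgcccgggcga
PSMB4, chr1:151399495-151399524, plus strand: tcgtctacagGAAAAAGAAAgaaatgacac
PSMA4, chr15:78540155-78540184, plus strand: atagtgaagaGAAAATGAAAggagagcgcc
The 4 with the shared letters differed in knockdown total RNA: PSMB8, PSMB10 and PSME2 rose and PSME1 fell.

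The core of the antioxidant response element, TGACNNNGC on either strand, was found in 13 of 38 (34.2%), against 17.9% of all promoters, in PSMA4, PSMB3, PSMB9, PSMC4, PSMC5, PSMD1, PSMD3, PSMD5, PSMD9, PSMD12, PSME1, PSME2 and PSME4. Among constitutive core and cap genes alone it was in 7 of 27 promoters (25.9%), while 3 of 4 activators and 2 of 3 base chaperones carried it. The 4 sequences shown are from the core, base and lid, the groups that declined together in wild-type cells. GCTGTGTCA is a match on the other strand.
PSMA4, chr15:78540650-78540678, plus strand: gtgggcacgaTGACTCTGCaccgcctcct
PSMB3, chr17:38752627-38752655, plus strand: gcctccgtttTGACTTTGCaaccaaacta
PSMC5, chr17:63827654-63827682, plus strand: gaccggatctGCTGTGTCAgcgccgccct
PSMD3, chr17:39980760-39980788, plus strand: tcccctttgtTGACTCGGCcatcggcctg
The 4 were picked from groups that declined, so their own fall adds nothing. Of all 13 carriers 10 fell over the day in wild-type total RNA, as did 36 of all 41 subunits tested and 26.1% of all genes. Among the carriers PSME1 and PSMB9 rose by 0.47 and 0.35, and PSME2 (0.06) did not pass. PSMD2 and PSMA5, whose windows held no match, also fell.

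The E-box CACGTG, to which BMAL1 binds with CLOCK, was in 3 of 38 (7.89%), against 10.9% of all promoters. These 3 are shown because the knockdown lowered a factor known to bind this motif.
PSMD9, chr12:121888649-121888674, plus strand: accacaggcgCACGTGttccggcagg
PSMB3, chr17:38752493-38752518, plus strand: ttcaccagccCACGTGcgcgcaggct
PSME3, chr17:42833345-42833370, plus strand: ctgcgcagcgCACGTGcacagcctcg
None of the 3 passed the test of knockdown against wild-type total RNA (PSMD9 -0.06, PSMB3 0.03, PSME3 0.07), but each passed under some settings. PSMD9 passed with the authors' scaling (-0.07), with median-ratio scaling (-0.07) and without replicate 1 (-0.12). PSME3 passed with the replicate block (0.07) and without replicate 2 (0.13), and PSMB3 without the shallow libraries (0.04). The CCAAT box was in 19 of 38 (50.0%), against 42.1%. A match is a description of letters within this window and says nothing of binding.

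The rest of the pathway gives the frame, and its counts are read against the 81.7% of all genes that passed for knockdown total RNA. Antigen processing and interferon regulator genes mostly rose, as the inducible subunits did: 13 of 15 rose and 1 fell in total RNA after knockdown, with a median of 0.35, where 41.8% of all genes rose. TAP1, the peptide transporter subunit, rose by 1.34 (SE 0.03, limma adjusted p = 3.8e-28), and HLA-E, a class I molecule, by 0.66 (SE 0.03, limma adjusted p = 1.9e-21). B2M, the class I light chain, fell by 0.04. In footprints 13 of 14 rose and 1 fell under both scalings. HLA genes are closely alike in sequence, and their counts are uncertain.

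Assembly factors of the core split in total RNA, with 2 of 5 higher and 3 lower, PSMG1 by -0.25 and POMP by 0.18. In footprints 4 of 5 were lower and none higher, and POMP, which matures the core, differed between assays by -0.37 (SE 0.04, limma adjusted p = 1.1e-10). With the authors' scaling 3 of 5 footprints were lower. Of 10 other proteins bound to the proteasome 3 rose and 5 fell, with UBLCP1, the proteasome phosphatase, falling by 0.70 and UBE3C, a ubiquitin ligase, rising by 0.23. Of 13 shuttle and unfoldase genes 4 rose and 4 fell in total RNA, led by AKIRIN2 (0.25) and UFD1L (-0.21). In footprints 1 of these 13 rose and 8 fell (37.4% and 38.1% of all genes), but with the authors' scaling 2 rose and 3 fell. All 9 regulators of proteasome genes passed in total RNA, 5 higher and 4 lower (2 higher and 4 lower with each replicate series reduced to its mean), with MAFF rising by 0.84 and MAFG falling by 0.52. NFE2L1 rose by 0.14 in total RNA and 0.26 in footprints, and DDI2, its protease, is counted in both of the last lists. Over the day in wild-type total RNA, the falls numbered 4 of 5 assembly factors, 5 of 10 bound proteins, 7 of 13 shuttles, 4 of 9 regulators and 2 of 15 antigen processing genes, where 26.1% of all genes fell. With lists this short, a share near that of all genes is no result about them.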

How the data were processed

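Total RNA and ribosome footprints were sequenced from U2-OS cells. Per the submitters' processing notes, the authors used STAR 2.3.0e, HTSeq 0.5.4p1 and DESeq2 (version not given) with GRCh37/hg19; the strand setting of counting is not given in the sources used here. The deposited values are a normalised signal per gene and library, reads divided by a size factor, in 8 tables. Whole reads were recovered from the steps of that deposited signal for 100% of values (tolerance 0.001 of a read); 790 of 19438 genes had no read. No deposited column was left unused (0), and libraries were matched through the table and column names.

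Because the files hold normalised values rather than counts, the main test was limma 3.58.1 (R 4.3.3) on log2(CPM + 0.25) with TMM scaling within each assay by edgeR 4.0.16. Genes were kept by edgeR's filter at a minimum count of 10, and p-values were adjusted by Benjamini-Hochberg over all genes at 0.05. Knockdown effects were averaged over 12 times, drift was a slope on circadian time given as the change from CT00 to CT22, and rhythm was a cosine and sine of 24 h. The fits were tested on simulated data. Alternatives were the authors' scaling, median-ratio scaling, other filters and pseudocounts, edgeR and DESeq2 1.42.0 on recovered reads, a replicate block, 1 mean per replicate series, leaving out each replicate, and leaving out the 2 shallow libraries. Changes of drift between treatments or assays, and splits by direction, were added after the data had been seen.

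Members and gene lists were chosen with earlier results of these data known. Named genes were PSMB5 to PSMB10, PSME1 to PSME4, and per comparison the 3 largest rises and falls past the threshold (3 largest for rhythm and drift); others were named to complete a role group. Same-numbered wild-type total RNA libraries deviated together (r 0.41 to 0.70 over 66 pairs of times), so the numbers pair them. Between treatments at 1 time r was -0.17 to 0.18 in total RNA. Between total RNA and footprints of the same number and time r was 0.21 to 0.42 in wild-type and -0.02 to 0.48 in knockdown cells. The efficiency tests did not pair the assays. P-values measure the spread between these samples only, which may be technical, and reads carry no molecular identifiers. A comparison of footprint density between genes was planned and not run, since coding lengths were not used here. 1 further gene list is not reported here.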

Additional observations from a re-analysis of the deposited data

Results flagged for a closer look

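Of the 16 subunits whose knockdown effect differed between footprints and total RNA, the 6 largest differences in size are given here. The difference, footprints minus total RNA, was -0.29 for PSMA3, -0.21 for PSME3, -0.20 for PSMB10, 0.18 for PSMC3, -0.16 for PSMC6 and -0.14 for PSMB7 (log2).

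The 24 h rhythm differed between treatments by 0.16 for PSME4 and 0.14 for PSMC4 in total RNA, and by 0.16 for PSMC4 in footprints. The change over the day differed between treatments, knockdown minus wild-type, by 0.41 for PSMD3, 0.37 for PSMC4 and 0.35 for PSMB2 in total RNA. In footprints it differed by 0.66 for PSMB10, 0.39 for PSMA1 and 0.34 for PSMD3. Each was a test of the difference itself. The highest knockdown total RNA values of PSMB2 were in the 2 shallow libraries.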

How the results depend on the processing

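With 24 libraries reduced to 1 mean per replicate series, 14 subunits were higher and 8 lower for the knockdown in total RNA (20 and 12 before). In the same fit 20 passed in footprints (31 before) and 0 for efficiency (16). With a linear drift in the model the rhythm counts were 0, 0, 2 and 0 (wild-type total RNA and footprints, then knockdown), and 0 and 0 for rhythm differences. With a cosine and a sine, drift passed for 15 in wild-type footprints, 8 in knockdown total RNA and 4 in knockdown footprints, and drift differences for 4 in total RNA and 0 in footprints. The replicate block gave 5 and 5 rhythm differences (2 and 1 before) and changed no other count by over 1.5 times; in knockdown total RNA it changed 1 call, that of PSME3. Rhythm differences in footprints numbered 2 with median-ratio scaling and 2 at a minimum count of 50. Drift differences in total RNA numbered 10 with the authors' scaling. The causes were not tested.

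Leaving out a replicate gave 29 to 32 knockdown calls in total RNA, 23 to 28 in footprints and 4 to 9 for efficiency. Rhythm counts were 13 to 24, 6 to 9, 6 to 7 and 1 to 5, and rhythm differences 0 to 1 and 0 to 0. Drift counts were 35 to 37, 27 to 27, 9 to 14 and 6 to 20, and drift differences 2 to 19 and 4 to 5.

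These values changed sign. With the authors' scaling, footprint effects were 0.019 for PSMA2, 0.021 for PSMC3, 0.023 for PSMD1, 0.013 for PSMD11, 0.038 for PSMD4, 0.087 for PSMD6, 0.081 for PSMD9 and 0.028 for PSME1, and efficiency 0.10 for PSMB3, 0.0048 for PSMD11 and 0.0088 for PSMD6. Without either replicate, PSMC5 ranged from -0.025 to 0.17 in total RNA and -0.016 to 0.21 for efficiency, wild-type drift of PSMB10 from -0.38 to 0.054, and drift differences from -0.017 to 0.45 for PSMB10 and -0.011 to 0.33 for PSMB4. With a cosine and a sine, knockdown drift was 0.0080 for PSMA2, 0.029 for PSMB1 and 0.015 for PSMB5 in total RNA and 0.0074 for PSMD7 in footprints. In 234 of 7349 alternatives the direction differed with neither value past the threshold.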
